A study of Mus musculus with 34 samples.

Results

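Eif4a1, a translation initiation factor, and Tpt1, whose mRNA is under translational control, each have a nearly or fully identical processed pseudogene on another chromosome. The 4 genes described here are Eif4a1, its copy Eif4a-ps4, Tpt1 and its copy Tpt1-ps3, out of 51368 genes in the deposited table. They were chosen with differences of these genes between library methods already known from the same data, so those differences are given as descriptions without a test. The values of each gene alone were set beside the sum of parent and copy, across library methods and fragment lengths.

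Eif4a1 encodes the DEAD-box RNA helicase of the eIF4F complex, which unwinds the leader of an mRNA so that the small ribosomal subunit can bind and scan. Tpt1 encodes the translationally controlled tumour protein, a small and very abundant protein whose mRNA carries a 5' terminal oligopyrimidine (TOP) tract and is translated in step with growth signals. A processed pseudogene is a DNA copy of a spliced mRNA that was reverse transcribed and inserted elsewhere in the genome. A sequencing read from the parent's exons can match such a copy equally well, and a quantifier that works with transcript sequences then divides the read between both by a statistical estimate.

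The RNA came from the liver of 1 wild-type C57BL/6J mouse of 12 weeks, extracted with TRIzol and a silica column. The sex is given as female in one field of the labels and as male in another. The study prepared 27 libraries from every combination of 3 selection methods, 3 PCR ramp rates (slow, medium, fast) and 3 fragment lengths (short, medium, long), plus 6 liver libraries and 1 heart library with no selection. PolyA libraries kept polyadenylated RNA (TruSeq Stranded mRNA), pull-down libraries removed ribosomal RNA on probes (TruSeq Stranded Total RNA), and digestion libraries degraded it with an enzyme (Illumina Stranded Total RNA Prep with Ribo-Zero Plus). Selected libraries started from 200 ng of RNA and unselected ones from 20 ng, all with UMI adapters and 13 PCR cycles. PolyA libraries and 3 unselected liver libraries belonged to batch 1, and the pull-down and digestion libraries and the other 3 unselected ones to batch 2. Direct comparisons of polyA with the other methods carry no batch term, and the batch difference measured in unselected libraries is given with the results. Unselected libraries had the slow ramp and the medium length. All liver libraries share one mouse, so replicates are technical preparations and every p-value measures only the spread between preparations.

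The total expected count per library, in units of 1e6 counts (M), was 23.5 to 41.4 M after polyA selection, 19.9 to 21.7 M for unselected liver (6 libraries) and 20.0 to 30.2 M after digestion. In 8 pull-down libraries it was 23.4 to 39.2 M, and in the pull-down library with slow ramp and long fragments it was 1.13 M. Values without this low-depth library are given beside the main pull-down results. The 8 hepatocyte markers summed to 12989 counts per 1e6 (CPM) or more in every liver library, and the 8 cardiomyocyte markers together came to at most 0.928 CPM in a liver library, against 9903 in the heart library.

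Eif4a1 (ENSMUSG00000059796) is a protein-coding gene on the minus strand at chr11:69666936-69672423 of GRCm38, and its transcript Eif4a1-213 has 11 exons and 1774 bases, of which 1221 are coding sequence. Eif4a-ps4 (ENSMUSG00000101188) is annotated as a processed pseudogene of 1 exon on the plus strand at chr1:60703932-60705149, with 1218 bases. Tpt1 (ENSMUSG00000060126) lies on the plus strand at chr14:75845093-75848525, and Tpt1-201 has 6 exons and 1169 bases with a coding sequence of 519 bases. Tpt1-ps3 (ENSMUSG00000084319) is a processed pseudogene of 1 exon on the minus strand at chr6:99877816-99878334. These models come from GENCODE M21, while RefSeq gives longer bounds for both copies, 1778 bases for Eif4a-ps4 and 823 bases for Tpt1-ps3.

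The annotated Eif4a-ps4 sequence differed from the Eif4a1 coding sequence at a single base, G534A, counted from the first base of the coding sequence with the base of Eif4a1 first. The 81 bases around it (bases 494 to 574 of the copy, GENCODE M21) show how little separates parent and copy, with another copy, Gm5513, for comparison. Capitals mark the base at position 534 and, in Gm5513, every base that differs from Eif4a1.
Eif4a1: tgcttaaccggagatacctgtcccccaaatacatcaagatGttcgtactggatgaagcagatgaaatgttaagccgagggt
Eif4a-ps4: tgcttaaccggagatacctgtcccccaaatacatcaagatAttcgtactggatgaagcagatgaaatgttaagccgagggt
Gm5513: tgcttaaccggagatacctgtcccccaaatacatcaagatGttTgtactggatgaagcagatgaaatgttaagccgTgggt

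Tpt1-ps3 had 0 differences from Tpt1 over its 519 annotated bases, which span the whole Tpt1 coding sequence with its stop codon. Bases 128 to 217 are shown with those of the next closest copies, Tpt1-ps6 and Tpt1-ps5 to show how alike the copies are. Capitals mark bases that differ from Tpt1.
Tpt1: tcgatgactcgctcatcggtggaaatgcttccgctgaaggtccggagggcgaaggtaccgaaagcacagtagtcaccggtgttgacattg
Tpt1-ps3: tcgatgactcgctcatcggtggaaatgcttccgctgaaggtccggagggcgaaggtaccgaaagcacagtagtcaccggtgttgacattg
Tpt1-ps6: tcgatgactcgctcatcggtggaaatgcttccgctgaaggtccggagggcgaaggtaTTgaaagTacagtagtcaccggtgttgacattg
Tpt1-ps5: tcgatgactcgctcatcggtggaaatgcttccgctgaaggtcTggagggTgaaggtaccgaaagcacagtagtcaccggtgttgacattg

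The share of a parent transcript that could equally belong to its copy fell with the length looked at. Of all 100-base windows of Eif4a1-213, 60.8% lay without a difference in Eif4a-ps4, and of all 500-base windows 17.2% did. For Tpt1-201 and Tpt1-ps3 the shares were 39.3% at 100 bases, 15.6% at 400 bases and 2.99% at 500 bases. Every window of Tpt1-ps3 was also a window of Tpt1, whereas 91.1% of the 100-base windows of Eif4a-ps4 lay in Eif4a1. Neither the read length nor the fragment length in bases is given in the sources used here, so which of these windows applies was not settled.

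**Figure D1:**
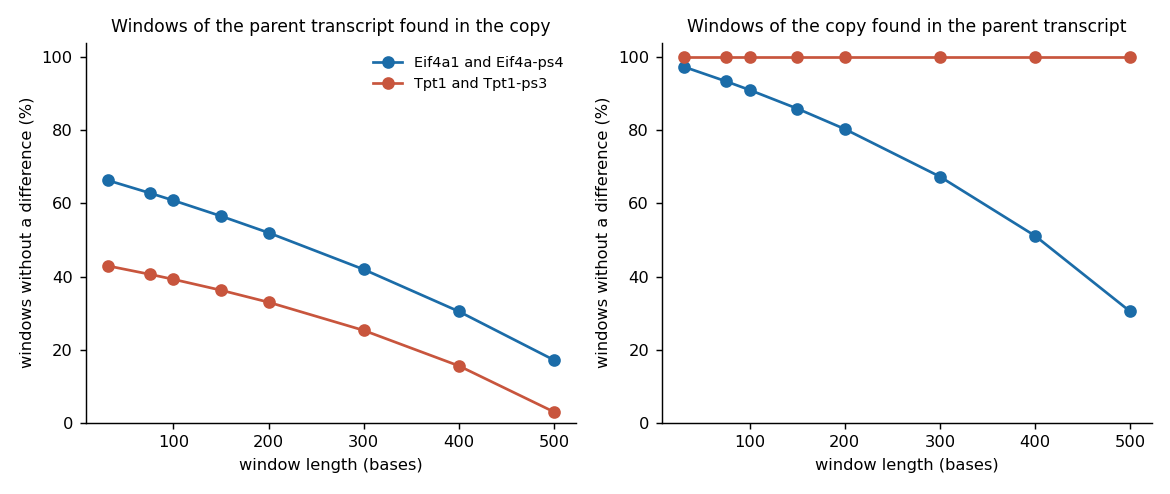
Share of windows without a difference (y, percent) against the window length in bases (x), for windows of the parent transcript found in the copy (left) and windows of the copy found in the parent (right); blue is Eif4a1 with Eif4a-ps4 and red Tpt1 with Tpt1-ps3. Shared windows of the parents drop from 66.3% and 42.9% at 31 bases to 17.2% and 2.99% at 500 bases, while the Tpt1-ps3 line on the right stays at 100%.

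The deposited values of these genes were estimates rather than whole reads. Of the values above 0 in the whole table, 18.5% were not whole numbers (tolerance 0.001). For Eif4a1 34 of 34 values were not whole, for Eif4a-ps4 27 of 27, for Tpt1 33 of 34 and for Tpt1-ps3 27 of 27.

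Eif4a-ps4 was listed at 0 in all 6 unselected liver libraries and above 0 in all 27 selected ones. In the polyA libraries its expected counts ranged from 1466 to 2945 with a median of 1968. In the pull-down libraries they were 60.5 in the low-depth library and 889 to 2054 in the other 8. In the digestion libraries the range was 327 to 907. No unselected library overlapped any selected one, although Eif4a1 itself had 655 to 785 counts in the unselected libraries, so a share of the pair above 0.458% would have exceeded the 3 counts set as the floor there. After scaling by TMM (trimmed mean of M-values) to counts per 1e6 library counts (CPM), Eif4a-ps4 stood at 47.2 ± 5.83 (SD, n = 9) in polyA, 46.4 ± 11.4 (n = 9) in pull-down and 16.1 ± 3.72 (n = 9) in digestion libraries. Against the floor of 3 counts per unselected library of the same batch these are at least 74.0-fold, 74.0-fold and 25.6-fold higher. Among all genes called in these contrasts it held rank 1 of 3945 for polyA, rank 2 of 2694 for pull-down and rank 4 of 1093 for digestion by the size of the increase, which is part of how it was chosen.

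Tpt1-ps3, the identical copy, went the other way, with its highest normalised level in the unselected libraries and counts of 0 in 7 selected libraries. The 6 unselected libraries held 377 to 460 expected counts, or 88.0 ± 5.11 normalised CPM (SD, n = 6). In the polyA libraries the normalised level ranged from 33.4 to 73.2 with a median of 64.7. At medium length, the length of the unselected libraries, it was 61.3 ± 9.97 (n = 3) in polyA, 34.04 ± 3.54 (n = 3) in digestion and 14.7 ± 8.44 (n = 3) in pull-down libraries. All 27 selected libraries lay below all 6 unselected ones.

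Fragment length divided the Tpt1-ps3 values further. The 3 long digestion libraries had 0 counts, the 3 medium ones 1711, 1468 and 1288, and the 3 short ones 1769, 1992 and 1569, in the order slow, medium and fast ramp. The 3 long pull-down libraries likewise had 0 counts, but so did the short library with slow ramp, beside 165 and 468 in the other short ones and 734, 589 and 268 at medium length. The polyA libraries showed no such gap, with 2196, 2719 and 1183 counts at long, 3352, 3875 and 2692 at medium and 1714, 2634 and 2472 at short length. A value of 0 in a long digestion library allowed a share of the pair of up to 0.0186%, counting error only.

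Expressed as a share of the pair, Eif4a-ps4 took 22.5% ± 2.63 (SD, n = 9) of the Eif4a1 and Eif4a-ps4 counts in polyA, 28.5% ± 8.13 of them in pull-down, and 13.9% ± 3.28 of them in digestion libraries. Without the low-depth library, whose own share of 41.7% had a 95% Wilson interval of 34.3 to 50.2%, the pull-down mean was 26.9% ± 6.90 (n = 8). Tpt1-ps3 took 24.6% ± 1.503 (n = 6) of its pair in unselected, 12.5% ± 3.29 in polyA, 7.96% ± 6.51 in digestion and 3.30% ± 3.84 in pull-down libraries (3.71% ± 3.89, n = 8, without the low-depth library). Thus the unselected libraries gave nothing to one copy and the largest share to the other. Intervals and floors cover counting error only.

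**Figure D2:**
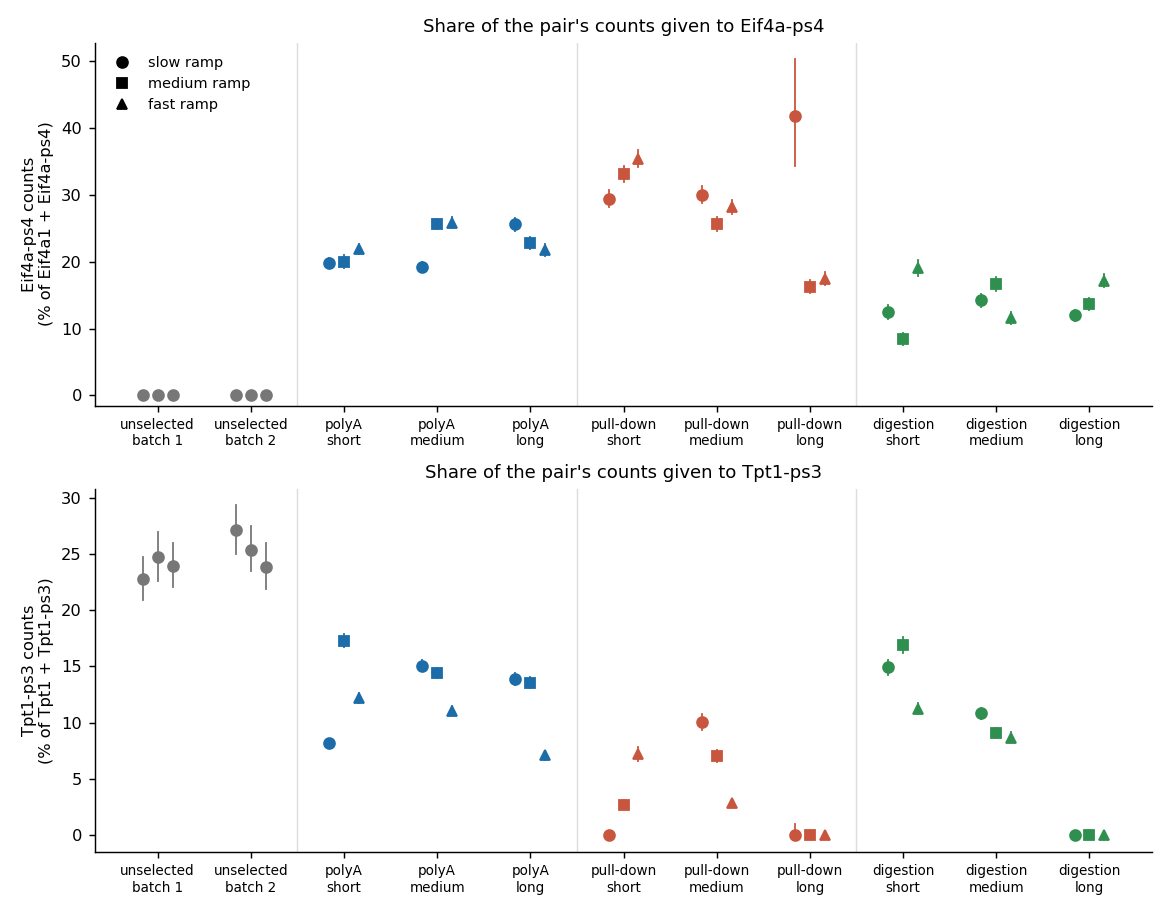
Share of the pair's expected counts given to the copy (y, percent; upper panel Eif4a-ps4, lower panel Tpt1-ps3) in each liver library (points; circle, square and triangle for slow, medium and fast ramp), grouped by method and fragment length, with vertical lines for 95% Wilson intervals. Eif4a-ps4 is at 0 only in the unselected libraries, and Tpt1-ps3 is at 0 in every long pull-down and long digestion library and in 1 short pull-down library.

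Adding the copy back to Eif4a1 changed what the methods seemed to do to this helicase gene. Eif4a1 alone had 153 ± 9.48 normalised CPM (SD, n = 3) in unselected batch 1 and 163 ± 11.0 (n = 9) in polyA libraries, groups that overlapped, with a fitted log2 difference of 0.06 (SE 0.11). The sum with Eif4a-ps4 reached 210 ± 11.5 in polyA libraries, every one of them above the unselected libraries, with a log2 difference of 0.44 (SE 0.08). In pull-down libraries Eif4a1 alone had 119 ± 22.1 against 151 ± 7.73 in unselected batch 2, with 1 library inside the unselected range and a log2 difference of -0.34 (SE 0.11), or -0.28 (SE 0.07) without the low-depth library. The sum, 165 ± 19.0, overlapped with unselected batch 2 only through the low-depth library (119), and the others (161 to 184) all lay above it. Its log2 difference had the other sign, 0.13 (SE 0.08), or 0.18 (SE 0.05) without the low-depth library. In digestion libraries both readings were lower than unselected, -0.63 (SE 0.11) for Eif4a1 and -0.40 (SE 0.08) for the sum, without overlap.

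For Tpt1 the copy worked in the opposite direction, since it held counts in the unselected libraries. Tpt1 alone rose from 274 ± 16.4 (n = 3) to 396 ± 29.9 (n = 9) in polyA libraries, a log2 difference of 0.56 (SE 0.08), and the sum gave 0.39 (SE 0.08). In digestion libraries Tpt1 alone was 329 ± 27.1 against 265 ± 17.5 in unselected batch 2, with no overlap and a log2 difference of 0.34 (SE 0.08). The sum was 358 ± 5.07 against 355 ± 20.1, with overlapping groups and a difference of 0.07 (SE 0.08). In pull-down libraries Tpt1 alone was 216 ± 43.8 with a log2 difference of -0.29 (SE 0.08), and the sum, 223 ± 41.4 against 355 ± 20.1, gave -0.64 (SE 0.08). The low-depth library had the highest Tpt1 value of its group, 332, and without it these differences were -0.36 (SE 0.05) and -0.71 (SE 0.04).

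**Figure D3:**
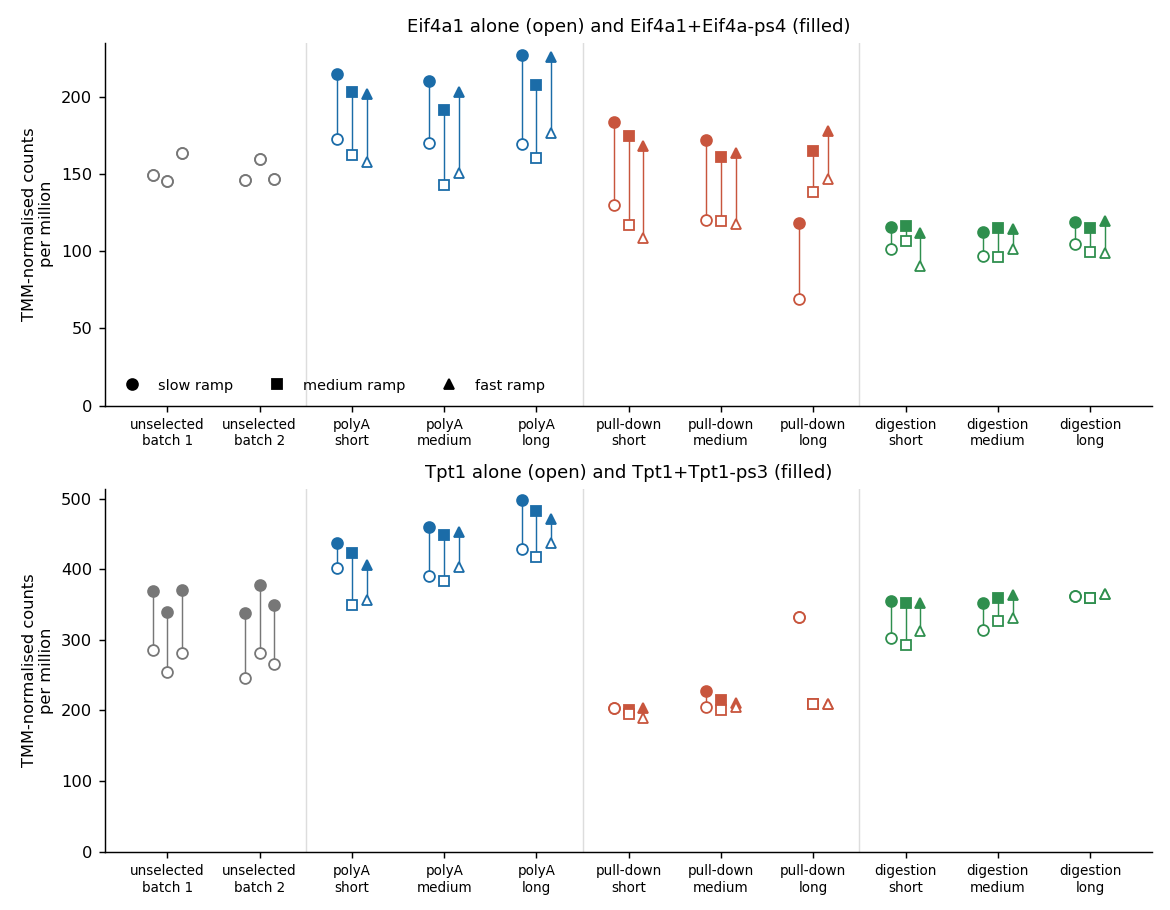
TMM-normalised CPM (y) in each liver library for the parent alone (open symbols) and for parent plus copy (filled symbols), joined by a line; symbols give the ramp rate and columns the method and fragment length. The filled Eif4a1 symbols separate polyA (192 to 228) from unselected (146 to 164) libraries where the open ones overlap, and the filled Tpt1 symbols of digestion libraries lie between 352 and 365.

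All these contrasts were part of how the genes were chosen, so no test is given and nothing is read from the number called. Over all 15422 genes tested with edgeR at an adjusted p under 0.05, 50.4% were called for polyA, 32.8% for pull-down and 14.7% for digestion against unselected libraries. The scaling bears on every such level. With library totals in place of TMM the median of all genes moved by 2.63 for polyA, 2.25 for pull-down and 2.81 for digestion on the log2 scale. Relative to that median the sums were 0.42, 0.08 and -0.43 for Eif4a1 with Eif4a-ps4 and 0.37, -0.68 and 0.04 for Tpt1 with Tpt1-ps3. Subtracting the median mostly undoes a change of scaling, so these kept signs are no check of it. Without the subtraction the Eif4a1 sum in digestion libraries went from -0.40 to 2.42. The Tpt1 sum in pull-down libraries went from -0.64 to 1.63.

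Between the selection methods, each parent and its sum had differences of the same sign. Digestion libraries had less of the Eif4a1 pair than pull-down libraries, by log2 -0.29 (SE 0.07) for Eif4a1, -1.505 (SE 0.15) for Eif4a-ps4 and -0.53 (SE 0.04) for the sum. They had more of the Tpt1 pair, by 0.63 (SE 0.05) for Tpt1 and 0.71 (SE 0.05) for the sum. PolyA libraries exceeded digestion libraries by 0.71 (SE 0.06) for Eif4a1, 1.55 (SE 0.14) for Eif4a-ps4, 0.86 (SE 0.04) for that sum, 0.27 (SE 0.05) for Tpt1 and 0.34 (SE 0.05) for its sum. PolyA libraries exceeded pull-down libraries by 0.90 (SE 0.05) for Tpt1 and 1.04 (SE 0.05) for its sum, and by 0.41 (SE 0.06) for Eif4a1 and 0.32 (SE 0.04) for its sum, while Eif4a-ps4 differed by 0.05 (SE 0.14). Without the low-depth library the differences of digestion from pull-down were -0.34 for Eif4a1, -0.57 for its sum, 0.69 for Tpt1 and 0.76 for its sum, and those of polyA from pull-down 0.37, 0.28, 0.95 and 1.0998 in the same order. The fitted differences of Tpt1-ps3 were 1.72 (SE 0.64) between digestion and pull-down, 1.78 (SE 0.61) between polyA and digestion and 3.496 (SE 0.68) between polyA and pull-down, with 7 libraries at 0. DESeq2 gave 1.92, 4.31 and 6.18 relative to the median of all genes, in the same order. The edgeR fit gave 0.48 (SE 1.0004) for polyA against unselected libraries, where the group means of 56.7 and 85.5 normalised CPM differ the other way (DESeq2 gave 2.93 relative to the median), so the levels of this copy are described by their means. Over all genes 72.6% were called between polyA and pull-down, 80.6% between polyA and digestion and 70.7% between digestion and pull-down.

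**Figure D4:**
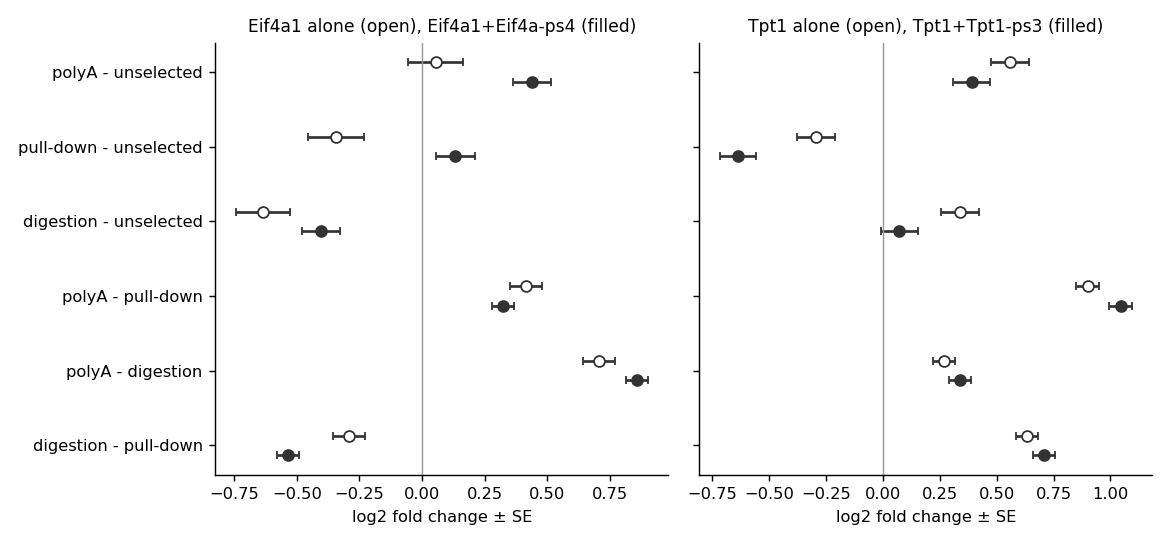
Fitted log2 fold change (x, with bars of 1 SE) for each pair of methods (rows), for the parent alone (open circles) and for parent plus copy (filled circles), Eif4a1 on the left and Tpt1 on the right. The open and filled circles lie on opposite sides of 0 for Eif4a1 in pull-down against unselected libraries (-0.34 and 0.13).

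Within digestion libraries the length contrast was also part of the choice, because Tpt1-ps3 had the largest decrease of all genes called there (rank 1 of 1392), with at least an 800-fold lower level in long than in short libraries against the floor. Tpt1 alone was 362, 359 and 365 normalised CPM in the 3 long libraries and 302, 293 and 312 in the 3 short ones, with no overlap and a log2 difference of 0.26 (SE 0.02). The sum with Tpt1-ps3 was 362 ± 2.82 against 353 ± 1.88 (SD, n = 3 each), also without overlap, a difference of 0.03 (SE 0.02). The 3 medium libraries stood between them for Tpt1 alone, at 314, 326 and 331. Eif4a1, Eif4a-ps4 and their sum differed between long and short digestion libraries by 0.02 (SE 0.04), 0.13 (SE 0.18) and 0.04 (SE 0.02), all with overlapping groups. Of all genes 18.3% were called in this contrast.

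In pull-down libraries the length contrast was tested, because no member was among the largest called changes there. That cut came from the same data, and the genes were chosen with earlier results of these data known. The p-values for length here, in polyA libraries and for their interaction are therefore descriptive. In pull-down libraries Eif4a-ps4 fell with fragment length. Its normalised level was 54.2, 57.9 and 59.5 in the short libraries, 51.7, 41.2 and 46.0 in the medium ones and 49.5, 26.8 and 31.1 in the long ones, in the order slow, medium and fast ramp, with long and short libraries apart. The log2 difference of long minus short was -0.83 (SE 0.15), adjusted p = 0.0216 by edgeR's quasi-likelihood test. It was the 1 gene of the 4 that was called, against 6.23% of all genes tested. Eif4a1 differed by 0.04 (SE 0.22, adjusted p = 0.939) and the sum by -0.16 (SE 0.14, adjusted p = 0.489). Tpt1 differed by 0.32 (SE 0.14, adjusted p = 0.190), its sum by 0.27 (SE 0.14, adjusted p = 0.258), and Tpt1-ps3 missed the threshold (adjusted p = 0.178).

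This contrast was sensitive to single libraries. Without the low-depth long library, Eif4a-ps4 fell by 0.95 (SE 0.08, adjusted p = 3.15e-05), Eif4a1 rose by 0.32 (SE 0.06, adjusted p = 0.00202), and their sum differed by 0.01 (SE 0.05, adjusted p = 0.893). Tpt1 then rose by 0.12 (SE 0.04, adjusted p = 0.0448) and its sum differed by 0.08 (SE 0.04, adjusted p = 0.192). The call for Eif4a-ps4 was lost without any 1 of 7 other libraries, all but the short one with slow ramp, with adjusted p between 0.0659 and 0.262 and log2 differences from -0.81 to -0.65. The low-depth library itself had the lowest Eif4a1 (69.1) and the highest Tpt1 value (332) of the pull-down group.

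In polyA libraries long fragments gave more Tpt1 and slightly more Eif4a-ps4. Tpt1 was 429, 417 and 437 normalised CPM in the long libraries and 401, 350 and 357 in the short ones, in the order slow, medium and fast ramp, a log2 difference of 0.19 (SE 0.04, adjusted p = 0.00118, edgeR). The sum with Tpt1-ps3 differed by 0.18 (SE 0.03, adjusted p = 9.65e-05). Tpt1-ps3 itself overlapped between lengths, with a difference of 0.05 (SE 0.21, adjusted p = 0.869). Eif4a-ps4 rose from 42.6 ± 1.82 to 51.5 ± 5.84 (SD, n = 3 each), by 0.25 (SE 0.09, adjusted p = 0.0335), while Eif4a1 differed by 0.02 (SE 0.05, adjusted p = 0.725) and their sum by 0.07 (SE 0.03, adjusted p = 0.0637). These were 2 called genes of 4, against 56.3% of all genes in a contrast with many calls.

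The polyA call for Eif4a-ps4 depended on single libraries and on the fit. The difference fell to 0.10 (SE 0.07, adjusted p = 0.223) without the long library with slow ramp. Without each of the 3 short libraries the call was lost at nearly the same difference, 0.27 (SE 0.11, adjusted p = 0.0724), 0.24 (SE 0.11, adjusted p = 0.0966) and 0.26 (SE 0.11, adjusted p = 0.0702). DESeq2 and the fit of 27 libraries also gave a similar difference with a larger error, 0.26 (SE 0.14, adjusted p = 0.116) and 0.25 (SE 0.15, adjusted p = 0.170), and library totals gave 0.20 (SE 0.09, adjusted p = 0.0852). Without the short library with medium ramp the sum of Eif4a1 and Eif4a-ps4 was called, at 0.10 (adjusted p = 0.0255). Without the short library with slow ramp Tpt1-ps3 was called lower in long libraries, at -0.31 (adjusted p = 0.0360). Its difference was also below 0 without the long library with slow ramp, at -0.18 (adjusted p = 0.479). The calls for Tpt1 and its sum held without any 1 library, but when all 27 selected libraries were fitted together with an interaction they were not called. The differences were then still 0.19 and 0.18, with the larger errors of 0.09 (adjusted p = 0.0600) and 0.08 (adjusted p = 0.0753).

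Whether the length difference itself depended on the method was tested with interaction terms over the 27 selected libraries. The long minus short difference of Eif4a-ps4 was lower in pull-down than in polyA libraries (log2 -1.16, SE 0.24, adjusted p = 0.00717), against 3.73% of all genes called. Without the low-depth library this was -1.22 (adjusted p = 0.00163). It lost its call without the long pull-down library with medium ramp (log2 -1.097, adjusted p = 0.0517). For Eif4a1 with Eif4a-ps4 summed the same term was -0.14 (adjusted p = 0.503). With 1 library left out it ranged from -0.23 to -0.05 and was never called, but library totals gave a call, as described below. The terms of Eif4a1, Tpt1 and the Tpt1 sum were 0.19 (adjusted p = 0.548), 0.12 (adjusted p = 0.662) and 0.09 (adjusted p = 0.753). The 95% interval of the Tpt1 sum reached from -0.15 to 0.32. Without the low-depth library the term of Eif4a1 passed the threshold, at 0.31 (adjusted p = 0.0214), where 1073 of all genes were called in place of 539. Those of Tpt1 and its sum then had the other sign, at -0.06 (adjusted p = 0.643) and -0.09 (adjusted p = 0.271). The length differences of digestion libraries were used in the choice, so no term with them is tested; that of Eif4a-ps4 between pull-down and digestion libraries was -1.06 (SE 0.26), or -1.12 (SE 0.25) without the low-depth library, in a contrast with 16.2% of all genes called.

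PCR ramp rate made no called difference. Between fast and slow libraries the 4 genes differed by -0.01 (Eif4a1, SE 0.07), 0.05 (Eif4a-ps4, SE 0.14), -0.08 (Tpt1, SE 0.05) and -0.49 (Tpt1-ps3, SE 0.64), all with adjusted p = 0.99986 in edgeR. None of the 4 had an unadjusted p under 0.05 and DESeq2 called none, and 1 of 14464 genes, or 0.00691%, was called in all. As a share of the pair, Eif4a-ps4 differed by -0.713 points between fast and slow libraries of the same method and length (SD 9.79 over 9 pairs, higher in 5 and lower in 4; exact two-sided sign-flip permutation test, p = 0.918, adjusted p = 0.918 over 2 tests). Over the 8 pairs without the low-depth library it was 2.24 points (exact p = 0.188, adjusted p = 0.375). Tpt1-ps3 differed by -1.40 points (SD 4.76, higher in 2 pairs and lower in 5; exact p = 0.438, adjusted p = 0.875), where 7 pairs with a difference allow a smallest p of 0.0156.

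Between the batches of unselected libraries the genes moved little. Eif4a1 had 151 ± 7.73 in batch 2 and 153 ± 9.48 in batch 1, Tpt1 265 ± 17.5 and 274 ± 16.4, and Tpt1-ps3 90.4 ± 6.34 and 85.5 ± 2.75 (SD, n = 3 each). The log2 differences of batch 2 minus batch 1 were 0.0002 (SE 0.05, adjusted p = 0.999), -0.03 (SE 0.05, adjusted p = 0.907) and 0.10 (SE 0.06, adjusted p = 0.676) by edgeR, with 95% intervals that reached from -0.13 at the lowest to 0.22 at the highest. None of the 3 had an unadjusted p under 0.05 and DESeq2 called none of them, against 0.366% of all genes called by edgeR.

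Per length of transcript the order of estimated values in unselected liver was Tpt1, Tpt1-ps3, Eif4a1, Eif4a2 and Eif4a3. Every window of Tpt1-ps3 lies in Tpt1, so its value is a division of shared reads by the quantifier and no measure of its own transcript. It also rests on the GENCODE length of 519 bases, where RefSeq gives 823. Whether the copies are transcribed was not tested. Tpt1 had 230 ± 13.6, Tpt1-ps3 169 ± 9.84 and Eif4a1 85.8 ± 4.39 normalised CPM per kilobase (SD, n = 6). Eif4a2, the paralog that can take the place of Eif4a1 in eIF4F, had 54.3 ± 1.98, and Eif4a3, the helicase of the exon junction complex, 9.72 ± 0.985. The ranges of neighbours in this order did not overlap. Eif4a-ps4 was at 0. In polyA libraries Tpt1-ps3 had 109 ± 28.9 and Eif4a1 91.8 ± 6.19 (n = 9), whose ranges overlapped, and Eif4a-ps4 38.7 ± 4.79.

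The paralogs Eif4a2 and Eif4a3 were tested in the same fits. Eif4a2 differed from unselected libraries by 0.34 (SE 0.14, adjusted p = 0.0402) in polyA, 0.32 (SE 0.14, adjusted p = 0.0769) in pull-down and -0.19 (SE 0.14, adjusted p = 0.411) in digestion libraries. Eif4a3 differed by 0.62 (SE 0.09, adjusted p = 1.64e-06), 0.74 (SE 0.10, adjusted p = 3.56e-07) and 0.17 (SE 0.10, adjusted p = 0.304). Eif4a2 rose with fragment length in polyA libraries by 0.61 (SE 0.04, adjusted p = 2.54e-07) and in digestion libraries by 0.16 (SE 0.02, adjusted p = 6.44e-05), and differed by 0.06 (SE 0.22, adjusted p = 0.891) in pull-down libraries. There its normalised level was 141 ± 3.90 in short and 144 ± 53.0 in long libraries, or 175 ± 5.60 (n = 2) without the low-depth library, above all short ones. Eif4a3 fell with length in polyA libraries (log2 -0.26, SE 0.06, adjusted p = 0.00179) and differed by -0.24 (SE 0.09, adjusted p = 0.148) in pull-down and -0.0019 (SE 0.05, adjusted p = 0.988) in digestion libraries.

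The other copies of both parents held almost nothing. Processed pseudogenes that share at least 10 windows of 31 bases with a parent transcript numbered 7 more for Eif4a1 and 6 more for Tpt1. Gm5513, 96.5% identical to Eif4a1, reached at most 4.001 expected counts in any library. Tpt1-ps6 (97.9% identical to Tpt1) reached at most 9.89 and Tpt1-ps5 (97.5%) at most 6.02. The remaining 10 copies had at most 1 count. Adding every one of these copies to the sums changed no sum by more than its standard error.

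Zero counts in long libraries, as for Tpt1-ps3, were seen in other copies too, while the pattern of Eif4a-ps4 was rare. Of 10152 processed pseudogenes of at least 100 bases in the table, 124 lay whole and without a difference inside a protein-coding transcript of another gene, as Tpt1-ps3 does, and 55 of them had at least 100 counts in some library. Zero counts in all 3 long and counts in all 3 medium libraries, the pattern of Tpt1-ps3, occurred for 12 of these 55 in pull-down, 7 in digestion and 13 in polyA libraries. Tpt1-ps3 was among those of pull-down and digestion libraries, and the other 6 in digestion libraries were copies of Rpl10a, Rpl27, Rps28, Cox7c, Snrpg and Ube2v2. The pattern of Eif4a-ps4, 0 in all unselected and above 0 in all selected libraries, occurred for 1 of the 55, Gm9531, a copy of Set. These copies were named after their values were seen. Among the 31 copies with at least 100 counts that were matched to a parent by gene symbol instead, the pattern of Tpt1-ps3 occurred for 6 in pull-down, 4 in digestion and 8 in polyA libraries, and that of Eif4a-ps4 for 0. Both sets hold Tpt1-ps3 and neither holds Eif4a-ps4. Adding the copy moved the log2 ratio of the parent to unselected libraries by a median absolute shift of 0.15 for polyA, 0.10 for pull-down and 0.09 for digestion over the 55 pairs. As the parent alone minus the sum, this was 0.20, 0.38 and 0.31 for Tpt1, which the copy lowered, and -0.37, -0.48 and -0.22 for Eif4a1, which its copy, not a whole one, raised.

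The partners of Eif4a1 in translation initiation moved in both directions. Of 19 genes of the eIF4F list, all tested, 8 were higher and 2 lower in polyA than in unselected libraries, where 25.6% of all genes were higher and 24.8% lower, with a median log2 difference of 0.22 against 0.04 over all genes. Eif4ebp1, an inhibitor of the cap-binding protein, was highest at 0.90 (SE 0.18, adjusted p = 8.67e-05). In pull-down libraries, where 17.5% of all genes were higher and 15.3% lower, 2 were higher and 8 lower (median -0.09 against 0.06), and Eif1, which guards start codon choice, was lowest at -2.41 (SE 0.08, adjusted p = 1.55e-20). In digestion libraries, with 7.09% of all genes higher and 7.65% lower, 2 were higher and 5 lower (median -0.10 against 0.04). Between long and short polyA libraries, with 27.7% of all genes higher and 28.7% lower, 8 were higher and 6 lower (median 0.04 against -0.02), from Paip1 at 0.79 (SE 0.06) to Eif4ebp1 at -0.73 (SE 0.05), adjusted p = 1.39e-06 and 2.80e-07.

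Of 15 listed genes that, like Tpt1, carry a 5' TOP tract, all tested, 13 were higher and 0 lower in polyA than in unselected libraries, beside 25.6% and 24.8% of all genes, with a median of 0.58 against 0.04 over all genes. Tpt1 alone stood at 0.56 in this contrast and its sum with Tpt1-ps3 at 0.39. The largest was Eef1b2, an elongation factor subunit, at 0.86 (SE 0.08, adjusted p = 9.40e-11). In pull-down libraries 11 were higher and 2 lower, beside 17.5% and 15.3% of all genes (median 0.41 against 0.06), where Tpt1 and its sum were lower, and Pabpc1, the poly(A)-binding protein that stands in both lists, was lowest at -1.77 (SE 0.07, adjusted p = 4.22e-19). In digestion libraries 2 were higher and 7 lower, beside 7.09% and 7.65% of all genes (median -0.30 against 0.04).

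Small RNA genes lie inside both parents. Snora31, within the bounds of Tpt1 (chr14:75847905-75848034), had at most 3 counts in any library. Within the bounds of Eif4a1 the table holds 3 snoRNA genes, looked at after their values were seen, of which Gm22988 (chr11:69669635-69669778) had the most. It had 1002 to 5715 counts in pull-down, 299.99 to 941 in digestion, 61.0 to 90.3 in unselected and at most 5.97 in polyA libraries. In pull-down libraries its normalised level was 45.3 ± 4.43 at short, 58.6 ± 14.6 at medium and 388 ± 373 at long fragments (SD, n = 3 each), where the low-depth library had 819 and the other 2 had 173 ± 1.102.

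The genes whose levels followed each member most closely over the 33 liver libraries were different for parent and copy. By Spearman's rho of log2 normalised counts they were Denr (0.926), Psmc2 (0.926) and Ddx5 (0.924) for Eif4a1, and Gm14117 (0.885), Nek2 (0.871) and Dio1 (0.870) for Eif4a-ps4. For Tpt1 they were AC125110.1 (0.924), Ube2a (0.918) and Crp (0.917), and for Tpt1-ps3 mt-Nd5 (0.794), Ptpn11 (0.786) and mt-Nd4l (0.785). These are descriptions over libraries that share one RNA and differ in method and depth. Over the 27 selected libraries other genes came first, among them Ufd1 for Eif4a1 (0.964), 0610031O16Rik for Tpt1 (0.972) and Hacd2 for Tpt1-ps3 (0.873), while Nek2 led for Eif4a-ps4 (0.874).

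The unselected heart library, 1 library with no replicate, showed the same division between copies as unselected liver. Eif4a-ps4 was listed at 0 and Tpt1-ps3 held 571 counts, 23.2% of its pair. Eif4a1 stood at 63.7 normalised CPM in heart against 149 ± 9.05 (SD, n = 3) in batch 1 liver, Tpt1 at 236 against 267 ± 15.8, and Tpt1-ps3 at 71.1 against 83.5 ± 2.57. These values were TMM-scaled over all 34 libraries, unlike the liver values above, and all 3 heart values lay below the lowest liver value. In expected counts Tpt1 had 1895 in heart against 1146 to 1383 in liver, and Tpt1-ps3 571 against 377 to 425. Eif4a1 had 512 against 655 to 785, and the library totals were 22.3 M against 20.0 to 21.7 M. The direction for Tpt1 and Tpt1-ps3 thus depended on the scaling, and with 1 library there is no test.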

How the data were processed

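The authors deposited 1 table of expected counts per gene (34 libraries, 51368 genes). Per the submitters' processing notes, Salmon 1.9.0, UMI-tools 1.1.1, R 4.4.0 and the build GRCm38 were used; the transcript set and the treatment of reads with several matches are not given in the sources used here. All value columns were used and no pair of libraries held identical values. Gene IDs were matched to GENCODE M21, which named 50820 and left 548 unmatched. The 4 genes and all gene lists were chosen with earlier results of these data known.

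Expected counts were rounded and tested with edgeR 4.0.16 (quasi-likelihood test, TMM factors, filterByExpr, Benjamini-Hochberg adjustment over all genes, threshold 0.05) under R 4.3.3 with limma 3.58.1. Sums of parent and copy were added as extra features with the library sizes and factors of the whole table. The methods were compared in a fit of the 33 liver libraries, lengths within each method, and interactions over the 27 selected libraries. The standard error was taken from the fold change and its F statistic, with intervals on the normal scale. The floor was 3 counts per library and intervals are 95% Wilson intervals. Named genes were the 4 members, the family list, the largest and smallest change in the eIF4F and TOP lists, small RNA genes inside the parents, and the 3 genes nearest in pattern. The values of 1 gene of the TOP list are not reported here. Alternatives were DESeq2 1.42.0, RLE size factors, library totals, no filter, a replicate block and wider sets of copies. Each library was left out in turn in the fits of length, interaction and batch. In the fit of methods this was done only for the 6 unselected libraries and the low-depth one, and in the ramp fit only for the low-depth one. The procedure was tested on simulated data. Sequences were compared with Biopython 1.88, and shares with SciPy 1.17.1 on Python 3.11.15.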

Additional observations from a re-analysis of the deposited data

Results flagged for a closer look

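The low-depth pull-down library (slow ramp, long fragments) stood apart from the other 8 pull-down libraries in 4 groups of 9 libraries. Its Eif4a1 level was 69.1 normalised CPM against 109 to 147 in the others, and the sum with Eif4a-ps4 was 119 against 161 to 184. Its Tpt1 level was 332 against 189 to 209.8, and the sum with Tpt1-ps3, which had 0 counts there, was also 332 against 200.3 to 228. The library held 1.13 M counts (M, 1e6 counts), and the part of its depth in these values was not tested.

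The long minus short difference of Eif4a-ps4 differed between methods by a test of the difference itself, among 5 such interactions tested for genes and sums. It was lower in pull-down than in polyA libraries (log2 -1.16, edgeR's quasi-likelihood test, adjusted p = 0.00717). The gene was chosen with earlier results of these data known, so this p-value is descriptive.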

How the results depend on the processing

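For 89 results 1355 values were recomputed. Of the tested differences, 221 of 252 with 1 library left out and 124 of 146 with another setting kept direction and call. Differences without a test moved by less than the SD between libraries in 470 of 477 and 213 of 246 cases, but 12 and 7 of these had the other sign, from values between -0.10 and 0.13, among them Eif4a1 in polyA against unselected libraries (0.06, and -0.00621 with RLE and -0.00760 with DESeq2). Counts of genes stayed within 1.5 times in 129 of 150 and 48 of 68 cases. Shares of a copy stayed within their SD in 6 of 6 and 10 of 10. With 1 library left out, part of these tallies could hardly differ. Differences and gene counts between selection methods were refitted only without single unselected libraries, which bear little on them. Eif4a-ps4 between digestion and pull-down libraries stayed between -1.50545 and -1.50537. Leaving out 1 library cannot move the mean share of a group by its SD. The 470 of 477, 129 of 150 and 6 of 6 thus overstate stability. All results rest on 1 mouse, and no read or fragment length is given. Expected counts of near-identical genes carry an error of division that the deposited values do not show. The 1.13 M counts in 1 library limit every long pull-down value. The cause of the changes below was not tested unless stated.

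With library totals instead of TMM, the sums of Eif4a1 and of Tpt1 with their copies were 3.09 and 3.04 (polyA), 2.39 and 1.63 (pull-down) and 2.42 and 2.89 (digestion) against unselected libraries, 0.64 and 1.36 between polyA and pull-down, 0.61 and 0.0941 between polyA and digestion, and 0.0248 and 1.26 between digestion and pull-down. Calls then numbered 14620, 14677 and 15143 against unselected libraries. RLE size factors changed the split of calls to 703 higher and 1444 lower in digestion (1093 and 1180 with TMM) and to 2054 and 2799 in pull-down (2694 and 2359).

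With library totals the long minus short difference was -0.0301 for Eif4a1 and -0.00486 for Tpt1-ps3 in polyA and -0.13 for Eif4a1 in pull-down libraries (DESeq2 gave -0.00513). The interactions of pull-down with digestion became -0.0155 for Eif4a1, -0.31 for its sum, -0.14 for Tpt1 and 0.0385 for its sum, and those with polyA -0.29 for the Eif4a1 sum (adjusted p = 0.0311), -0.0235 for Tpt1 and -0.0533 for its sum. Without a filter on low counts the Tpt1 interaction with digestion was -0.0120. The Tpt1 batch difference became 0.0283.

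Without the low-depth library the Tpt1 interactions were -0.14 with digestion and -0.0569 with polyA, those of the Eif4a1 and Tpt1 sums with digestion -0.0387 and 0.0338, that of its sum with polyA -0.0882, and the pull-down length difference of the Eif4a1 sum 0.00978. In the fit of 27 libraries the Tpt1 sum differed with length by 0.0521 in digestion, 0.18 in polyA (adjusted p = 0.0753) and 0.26 in pull-down libraries (adjusted p = 0.0205). RLE gave the Eif4a1 sum 0.0772 in polyA (adjusted p = 0.0427).

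Genes called changed as follows. For pull-down length (880) they were 2517 with library totals and 5400 without the low-depth library, and for digestion length (2728) 1060 with DESeq2. For the interaction of pull-down with digestion (2341) they were 4599 with library totals and 4025 without the low-depth library, and with polyA (539) 2794, 1073, 1040 with RLE and 1588 with DESeq2. For ramp (1) they were 2 with library totals, 7 without a filter, 5 with DESeq2 and 4 without the low-depth library. For batch (39) they were 102 with library totals, 120 without a filter and 7 with DESeq2.

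With 1 library left out, length differences ranged from 0.10 to 0.34 (Eif4a-ps4), -0.0294 to 0.0733 (Eif4a1), 0.0488 to 0.10 (Eif4a1 sum) and -0.31 to 0.28 (Tpt1-ps3) in polyA, and from -0.95 to -0.65 (Eif4a-ps4), -0.18 to 0.32 (Eif4a1), -0.30 to 0.01 (Eif4a1 sum) and 0.12 to 0.42 (Tpt1) in pull-down libraries. Interactions of pull-down with polyA ranged from -1.26 to -1.07 (Eif4a-ps4), 0.07 to 0.31 (Eif4a1), -0.0569 to 0.21 (Tpt1) and -0.0882 to 0.18 (Tpt1 sum), and with digestion from 0.0454 to 0.29 (Eif4a1), -0.22 to -0.0387 (Eif4a1 sum), -0.14 to 0.12 (Tpt1) and 0.0338 to 0.30 (Tpt1 sum). Batch differences ranged from -0.0504 to 0.0531 (Eif4a1) and -0.0858 to 0.0223 (Tpt1). Genes called ranged from 12 to 64 for batch, 1305 to 2236 for digestion against unselected, 77 to 5400 for pull-down length, 1198 to 4025 and 224 to 1073 for the interactions of pull-down with digestion and polyA.

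The unselected libraries of both batches share replicate numbers, but same-numbered libraries did not deviate together (correlations -0.02, -0.04 and -0.04). A replicate block in the batch comparison called 90 genes in place of 39 and changed no call of the 3 genes tested, with 2.65e-05 for Eif4a1, -0.03 for Tpt1 and 0.09 for Tpt1-ps3.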
